A study of Mus with 7 samples.

Results

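Cholesterol is built in 2 stretches, 1 that makes squalene and 1 that turns squalene into the finished sterol. Described here are 9 enzymes of the second stretch, Sqle, Lss, Cyp51, Msmo1, Nsdhl, Hsd17b7, Ebp, Sc5d and Dhcr7, which were taken by symbol from the 31053 genes counted in mouse fetal liver-derived macrophages (FLMs). All 9 were found, each under a single symbol. In textbook biochemistry, Sqle adds oxygen to squalene, Lss folds the product into lanosterol, and Cyp51, Msmo1, Nsdhl and Hsd17b7 strip methyl groups from it. Ebp and Sc5d then move and add double bonds in the ring, and Dhcr7 reduces a ring double bond at the end of the route. Genes of this pathway are known targets of the transcription factor SREBP2, which the escort protein SCAP and the retention proteins INSIG1 and INSIG2 hold back when the membrane of the endoplasmic reticulum is rich in sterol, and macrophages are known for handling large amounts of cholesterol.

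FLMs are self-renewing primary macrophages that grow from cells of the mouse fetal liver in GM-CSF, a growth factor that all groups received. All 7 groups were wild type, and the study's methods name the strain C57BL/6J. Con cells grew in 10% fetal bovine serum (FBS) and were collected untreated, at the start of the 24 h that the other groups spent in treatment medium. Veh cells were kept for 24 h in 0.25% FBS with 8.3 µM bovine serum albumin (BSA), the carrier, and DHA cells were kept in the same medium with 25 µM of the omega-3 fatty acid docosahexaenoic acid (DHA) on 8.3 µM BSA. Both were then given 20 ng/mL lipopolysaccharide (LPS), a bacterial cell wall component that activates macrophages, for 1 h (Veh.LPS.1, DHA.LPS.1) or 4 h (Veh.LPS.4, DHA.LPS.4), or none (Veh.LPS.0, DHA.LPS.0). Each group was 1 library of single cells from cultured cells, so no difference between groups has a replicate check, no test was made, and intervals cover counting error only.

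Between 692 and 3073 cells per library were kept, with a median of 29369 to 56239 unique molecular identifiers (UMIs, each 1 captured RNA molecule) per cell and 22045775 to 125716982 UMIs in all. Levels are CPM, a gene's UMIs per 1000000 UMIs of its library, from a kit that counts the 3′ ends of transcripts. Orders and overlaps of levels rest on these library totals, and some change with the scaling factors given below. Every kept cell held at least 6 of 9 macrophage markers. Markers of other cell types were summed over each list. The 5 neutrophil markers had 0.0571 to 7.53 CPM, highest in DHA.LPS.4 and mostly S100a8, with S100a9, Ly6g and Ngp at 0 UMIs. Of the erythroid markers, Hbb-bs had no UMI and Hba-a1 had 4 to 23 UMIs per library. The sums were 0.0557 to 0.370 CPM for 4 lymphoid markers (all but Cd79a at 0) and at most 0.0454 CPM for 4 stromal markers, and 4 mast cell markers had no UMI. The 5 hepatocyte markers had 5.48 to 7.71 CPM, nearly all of it Afp, with Alb and Ttr at 0. Libraries stood apart in how many barcodes passed, since at least 20% of UMIs were mitochondrial in 74.4% to 80.0% of DHA barcodes and in 35.8% to 54.7% of Veh barcodes. Of 11624 distinct kept barcodes, 16 were in more than 1 library.

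Sqle (ENSMUSG00000022351; mm10 chromosome 15, 59315092 to 59331193) carries out the oxygen-adding step, a known control point of the pathway. Its CPM was 33.0 for Con, then 96.0, 109 and 91.2 for Veh cells at 0, 1 and 4 h of LPS, and 74.0, 73.5 and 58.2 for DHA cells at those hours. Every DHA level was below every Veh level, and the intervals of DHA.LPS.0 and DHA.LPS.1 overlapped. Lss (ENSMUSG00000033105; chromosome 10, 76531565 to 76557139) makes lanosterol, the first sterol of the route. Con held 9.14 CPM of it, Veh cells at 0, 1 and 4 h of LPS held 41.3, 53.0 and 37.5 CPM, and DHA cells 24.2, 23.6 and 15.3 CPM. The order of the 7 libraries was that of Sqle, and the highest level was 5.80 times the lowest. Lss overlaps the locus 4930483K19Rik, which was also counted, and whether this affected the count of Lss was not tested.

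Cyp51 (ENSMUSG00000001467; chromosome 5, 4080674 to 4104697) removes the first of the methyl groups of lanosterol. Its level was 40.4 CPM in Con, 150, 280 and 254 CPM across the Veh libraries in order of LPS time, and 87.8, 148 and 123 CPM across the DHA libraries. The 2 Veh libraries with LPS stood above all others, and DHA.LPS.1 overlapped Veh.LPS.0, the cells without LPS or DHA. Msmo1 (ENSMUSG00000031604; chromosome 8, 64718123 to 64733578), the oxidase that begins the removal of the next methyl groups, stood at 43.7 CPM in Con, at 178, 263 and 230 CPM across Veh, and at 135, 160 and 135 CPM across DHA. By library totals DHA.LPS.0 and DHA.LPS.4 overlapped, and all 3 DHA levels lay below Veh.LPS.0.

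Nsdhl (ENSMUSG00000031349; chromosome X, 72918521 to 72958528) follows Msmo1 as the dehydrogenase of methyl removal. Con gave 10.0 CPM, the Veh libraries 44.3, 47.9 and 40.7 CPM, and the DHA libraries 27.0, 26.7 and 18.1 CPM, the order of Sqle and Lss. Hsd17b7 (ENSMUSG00000026675; chromosome 1, 169949535 to 169969242), the reductase that closes each round of methyl removal, was at 16.6 CPM in Con, at 55.3, 94.8 and 92.5 CPM across Veh, and at 38.5, 50.9 and 57.2 CPM across DHA. It was the 1 member of the 9 whose level in DHA.LPS.4 was the highest of the 3 DHA libraries. Its intervals in Veh.LPS.1 and Veh.LPS.4 overlapped, as did those in DHA.LPS.4 and Veh.LPS.0.

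Ebp (ENSMUSG00000031168; chromosome X, 8185329 to 8193512), the sterol isomerase, measured 78.5 CPM in Con, 78.6, 72.4 and 44.1 CPM across Veh, and 66.6, 58.2 and 38.3 CPM across DHA. Con and Veh.LPS.0 overlapped, and both 4 h libraries were lowest. Sc5d (ENSMUSG00000032018; chromosome 9, 42251592 to 42264300), the sterol desaturase, was at 22.4 CPM in Con, at 78.5, 143 and 118 CPM across Veh, and at 52.2, 74.1 and 59.8 CPM across DHA. Its order was that of Cyp51. Dhcr7 (ENSMUSG00000058454; chromosome 7, 143823167 to 143848410), the last reductase, stood at 10.1 CPM in Con, at 27.9, 22.3 and 6.66 CPM across Veh, and at 19.3, 14.4 and 4.04 CPM across DHA. Both 4 h libraries were below Con, which was so for no other member but Ebp. The level in DHA.LPS.4 rested on 89 UMIs, with a Poisson 95% interval of 3.24 to 4.97 CPM.

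**Figure D1:**
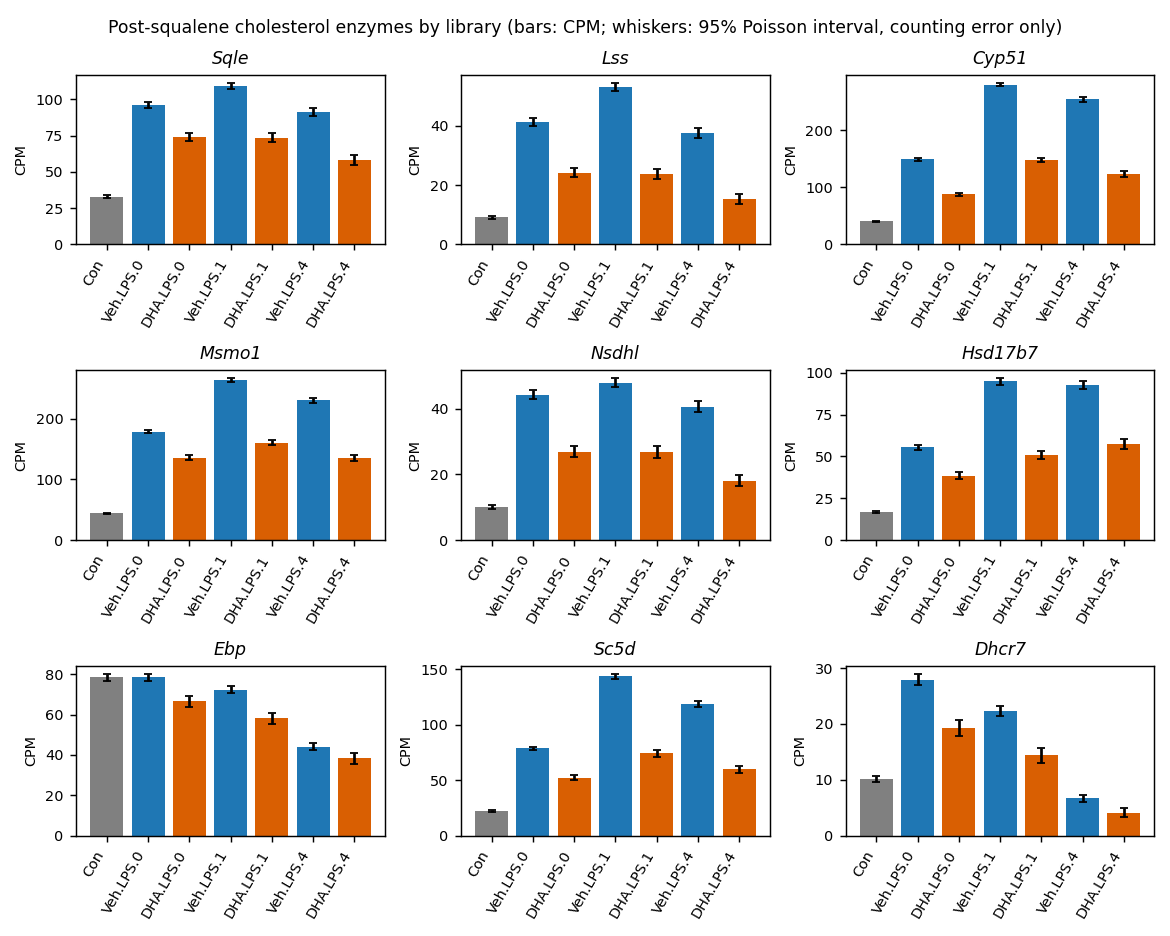
Level of each enzyme (vertical axis, CPM, starting at 0) in the 7 libraries, with bars for CPM and whiskers for the Poisson 95% interval of counting error. Con is lowest in 7 panels, whereas Ebp is as high in Con (78.5 CPM) as in Veh.LPS.0 (78.6 CPM), and Dhcr7 is lowest in DHA.LPS.4 (4.04 CPM).

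The members in the plot of levels can be grouped by their LPS ratios with Veh, though the first 2 groups meet closely. Sqle, Lss and Nsdhl had ratios between 0.909 and 1.28, and Cyp51, Msmo1, Hsd17b7 and Sc5d between 1.29 and 1.87. Ebp and Dhcr7 had ratios below 1 at both hours, but from Con to Veh.LPS.0 their ratios were 1.00 and 2.78. The sum over the 9 genes was 264 CPM for Con, 749, 1087 and 915 CPM for Veh by hour, and 525, 630 and 509 CPM for DHA. These sums rest on library totals. Trimmed mean of M values (TMM) scaling factors were 1.10, 1.03 and 0.831 for Veh by hour, and 1.07, 0.987 and 0.883 for DHA. Division by these factors raises the 4 h sums against those at 0 and 1 h, so the order of the sums over the hours depends on the scaling.

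The comparison of Veh.LPS.0 with Con asks what the medium with reduced serum and BSA did before any LPS or DHA. Con was collected before that medium was added, so serum, BSA and a further 24 h in culture cannot be told apart. Levels of 8 of the 9 enzymes rose by more than 1.5-fold. The largest ratio was that of Lss at 4.51 (binomial 95% interval 4.23 to 4.82), followed by Nsdhl at 4.42 (4.15 to 4.71) and Msmo1 at 4.08 (3.95 to 4.20). Those of Cyp51, Sc5d and Hsd17b7 were 3.70, 3.50 and 3.33, and the 2 smallest rises were those of Sqle at 2.91 (2.80 to 3.01) and Dhcr7 at 2.78 (2.60 to 2.97). Ebp had a ratio of 1.00 (0.972 to 1.03). Of 8252 genes detected in 25% or more of cells in 1 or both libraries, 9.31% were higher and 7.76% lower by more than 1.5-fold. The median log2 ratio was 1.81 over the 9 enzymes and -0.07 over all of these genes. The summed level was 2.84 times that of Con (2.80 to 2.88).

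LPS followed the 24 h of pretreatment, so cells with LPS were 1 or 4 h longer in culture than those without. That time and LPS cannot be told apart. With Veh and 1 h of LPS, 3 enzymes rose by more than 1.5-fold and none fell by as much. Cyp51 had a ratio to Veh.LPS.0 of 1.87 (1.84 to 1.91), Sc5d of 1.83 (1.78 to 1.88) and Hsd17b7 of 1.71 (1.66 to 1.77). Msmo1, at 1.48 (1.45 to 1.51), lay just short of the limit, and Lss, Sqle and Nsdhl had ratios of 1.28, 1.14 and 1.08. Ebp and Dhcr7, with ratios of 0.922 (0.892 to 0.952) and 0.797 (0.753 to 0.844), were the 2 members below 1. Among 8089 genes, 4.15% were higher and 4.24% lower, and the median log2 ratio was 0.36 for the members and -0.10 for these genes.

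After 4 h of LPS the same 3 enzymes were, by library totals, past 1.5-fold above Veh.LPS.0, whereas Ebp and Dhcr7 were past it below. Ratios were 1.70 (1.66 to 1.74) for Cyp51 and 1.67 (1.61 to 1.74) for Hsd17b7. Sc5d, at 1.51 (1.46 to 1.56), was just past the limit. Dhcr7 fell to 0.238 times its level (0.214 to 0.265), the largest change of any member with LPS and Veh, and Ebp to 0.562 (0.537 to 0.587). Msmo1 had a ratio of 1.29, Sqle of 0.95, Nsdhl of 0.918 and Lss of 0.909. At this hour 10.2% of 8385 genes were higher and 38.3% lower, so the fall of 2 of 9 enzymes is below the share of all genes, whereas the 3 rises are above it. The median log2 ratio over all of these genes was -0.36. With TMM factors in place of library totals that median was 0.05. The log2 ratios of Sqle, Lss and Nsdhl then turned from -0.07, -0.14 and -0.12 to 0.34, 0.27 and 0.28. Ebp, at -0.42, was no longer past 1.5-fold while Dhcr7, at -1.66, was. Msmo1 was past it above with these factors, at 0.78, and also at 1 h, at 0.67. Cyp51, Hsd17b7 and Sc5d were at 1.17, 1.15 and 1.00 with these factors at 4 h, and at 1.01, 0.88 and 0.97 at 1 h. At 1 h Ebp moved from a log2 ratio of -0.12 to -0.01 with these factors, and Dhcr7 from -0.33 to -0.22. The share of all genes past 1.5-fold was not counted with TMM factors. All 6 genes of a proliferation list (Mki67, Top2a, Ccnb1, Cdk1, Birc5, Cenpf) fell by more than 1.5-fold at this hour, with a median log2 ratio of -2.06, and in cells without a UMI of Mki67 or Top2a the log2 ratios were 0.31 for Sqle, 0.28 for Lss, 0.48 for Nsdhl and 0.77 for Msmo1, the last past the limit.

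In cells given DHA, LPS was read against DHA.LPS.0. At 1 h Cyp51 rose with a ratio of 1.69 (1.61 to 1.77) and was the 1 member past 1.5-fold. Sc5d had 1.42 (1.33 to 1.51), Hsd17b7 1.32 (1.23 to 1.42) and Msmo1 1.19, while the intervals of Sqle (0.939 to 1.05), Lss (0.884 to 1.08) and Nsdhl (0.903 to 1.09) held 1. No member was lower by more than 1.5-fold, with 4.66% of 8474 genes higher and 4.97% lower. With TMM factors or with all deposited barcodes, the count of higher members was 2, Sc5d being the other. No share of all genes was counted under these settings. The median over the members turned from -0.01 to 0.14 with all barcodes.

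At 4 h with DHA, 3 members were lower by more than 1.5-fold and none higher. Dhcr7 fell to 0.209 times its DHA.LPS.0 level (0.166 to 0.262), Ebp to 0.575 (0.531 to 0.622) and Lss to 0.631 (0.555 to 0.717). Nsdhl, at 0.669, was just short of the limit, and Hsd17b7, at 1.49 (1.38 to 1.61), was just short of it on the other side. Of 8477 genes, 33.6% were lower and 9.64% higher, so the members' share of lower genes was close to that of all genes. With TMM factors, 2 members were higher (Cyp51 at a log2 ratio of 0.76 and Hsd17b7 at 0.85) and 1 lower (Dhcr7 at -1.98). The share of all genes was not counted with TMM factors. Their median log2 ratio was -0.29 with library totals and -0.02 with TMM factors. The LPS ratios of Veh and of DHA cells, and the background of each, share no library.

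**Figure D2:**
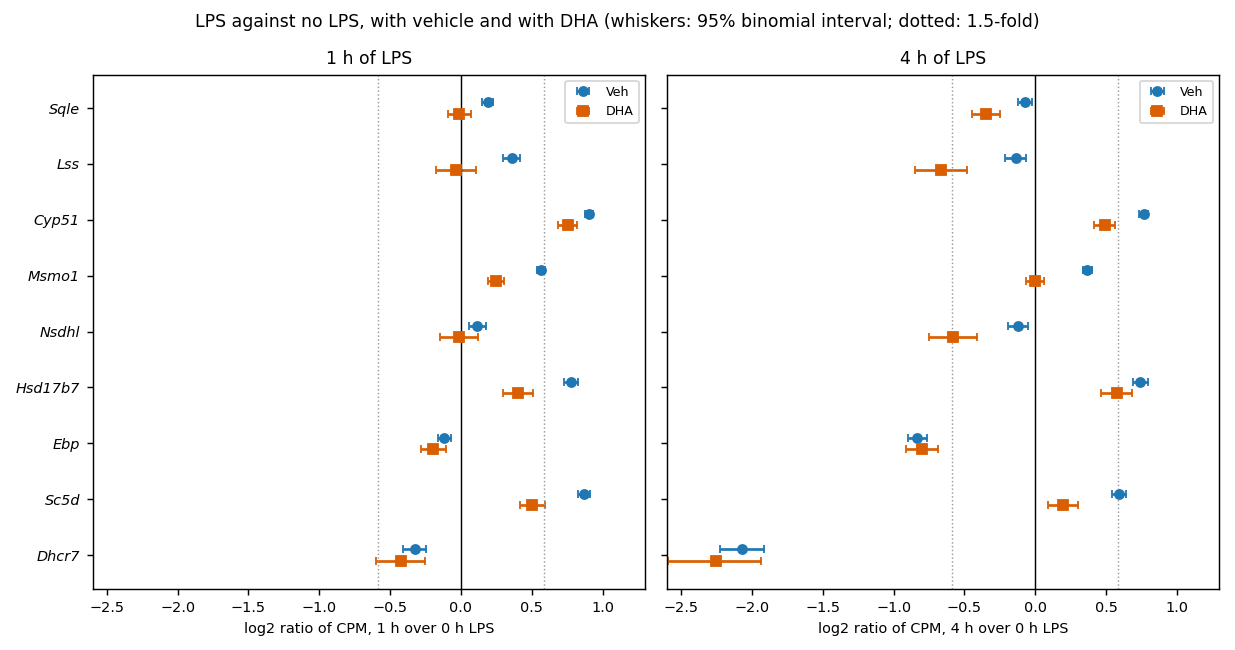
Log2 ratio of CPM with LPS over without (horizontal axis) for each enzyme (vertical axis, in order of reaction), at 1 h and 4 h, for Veh and DHA cells, with binomial 95% intervals of counting error and dotted lines at 1.5-fold. Cyp51, Hsd17b7 and Sc5d lie past 1.5-fold with Veh at both hours, and Dhcr7 reaches -2.07 with Veh and -2.26 with DHA at 4 h.

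The plot of LPS ratios sets the same hour side by side for both pretreatments. For every member but Ebp at 4 h, the DHA value lay to the left of the Veh value, and the Ebp values at that hour were -0.83 with Veh and -0.80 with DHA. With TMM factors these Ebp values were -0.42 and -0.53, so their order turned.

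The comparison of DHA with Veh at the same hour asks how levels differed between the 2 pretreatments, without LPS and with it. Kept cells were 698 of 3773 barcodes in DHA.LPS.0 and 2481 of 4461 in Veh.LPS.0. Without LPS, the levels of 4 of the 9 enzymes fell by more than 1.5-fold. They included Lss with a ratio of 0.587 (0.544 to 0.632), Cyp51 with 0.587 (0.565 to 0.610) and Nsdhl with 0.609 (0.567 to 0.654). The other was Sc5d with 0.666 (0.632 to 0.70), just past the limit. Dhcr7 at 0.690, Hsd17b7 at 0.695, Sqle at 0.771, Msmo1 at 0.759 and Ebp at 0.848 (0.809 to 0.888) were also below 1. Of 8434 genes, 0.949% were lower and 1.08% higher by more than 1.5-fold, and the median log2 ratio was -0.54 for the members and -0.05 for these genes.

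At 1 h of LPS, 7 of the 9 enzymes were lower with DHA by more than 1.5-fold. Lss fell to 0.446 (0.413 to 0.482) of its Veh.LPS.1 level, Sc5d to 0.516 (0.494 to 0.539), Cyp51 to 0.528 (0.512 to 0.545) and Hsd17b7 to 0.537 (0.509 to 0.566). Nsdhl, Msmo1 and Dhcr7 had ratios of 0.558, 0.610 and 0.645. Sqle, at 0.672 (0.642 to 0.703), was just short of the limit, and Ebp was at 0.804 (0.763 to 0.846). The share of all 7794 genes was 1.73% lower and 1.33% higher.

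At 4 h of LPS, 8 of the 9 were lower with DHA by more than 1.5-fold, where 2.42% of 7672 genes were lower and 2.22% higher. The lowest ratios were those of Lss at 0.408 (0.362 to 0.457), Nsdhl at 0.444 (0.398 to 0.494) and Cyp51 at 0.485 (0.465 to 0.505). Sc5d, Msmo1, Dhcr7, Hsd17b7 and Sqle followed with 0.506, 0.588, 0.607 (0.476 to 0.765), 0.619 and 0.638. Ebp had a ratio of 0.868 (0.802 to 0.938) and was the 1 member inside 1.5-fold at all 3 hours. The summed level with DHA was 0.70, 0.580 and 0.556 times that with Veh at 0, 1 and 4 h.

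**Figure D3:**
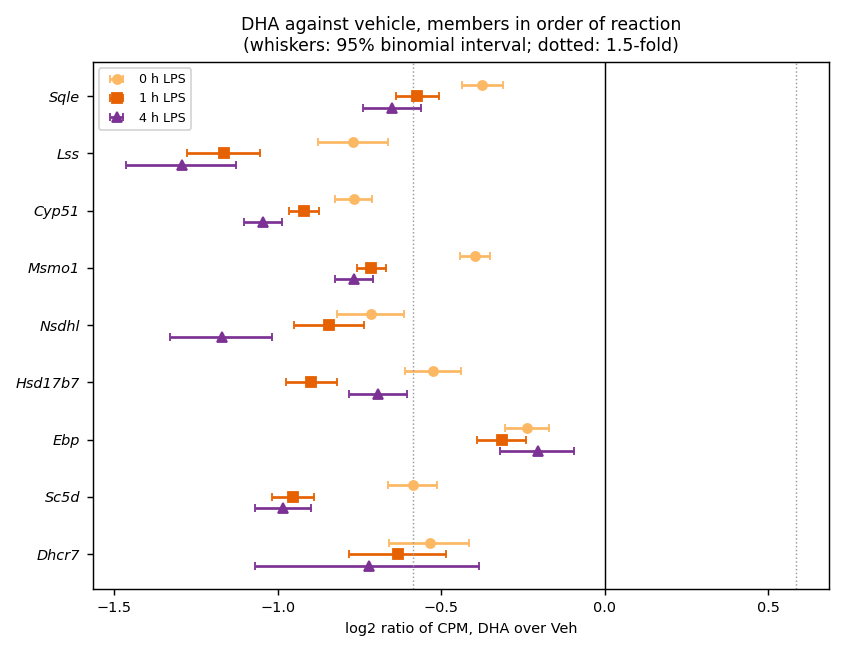
Log2 ratio of CPM, DHA over Veh (horizontal axis), for each enzyme in order of reaction (vertical axis) at 0, 1 and 4 h of LPS, with binomial 95% intervals of counting error and dotted lines at 1.5-fold. Every point lies left of 0, Lss reaches -1.29 at 4 h, and Ebp stays between -0.31 and -0.21.

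These DHA counts depended on which cells were read. With all deposited barcodes, including those rich in mitochondrial UMIs, 2 members were lower by more than 1.5-fold at 0 h (Lss and Nsdhl) and 4 at 1 h (Lss, Nsdhl, Hsd17b7 and Sc5d), and Sqle and Msmo1 were no longer past it at 4 h. Ebp then turned to log2 ratios of 0.01, 0.23 and 0.30 at the 3 hours, and Msmo1 to 0.02 at 0 h. Mki67 and Top2a are markers of cycling cells. In cells without a UMI of either after thinning, Cyp51 alone was past 1.5-fold at 0 h, at a log2 ratio of -0.75. With TMM factors, Sc5d at 0 h (-0.54) and Dhcr7 at 1 h (-0.58) were no longer past the limit. Sc5d at 0 h was not past it under 5 of the 7 alternatives. Proliferation moved with DHA as well. Of the 6 proliferation genes, all 6 had lower values with DHA at 0 and 1 h, with medians of -0.45 and -0.56 on the log2 scale, and all 6 were higher by more than 1.5-fold at 4 h, with a median of 0.66. The median of the 9 enzymes in cells without Mki67 or Top2a after thinning was -0.43 at 0 h and -1.18 at 4 h. Within a library, the summed level in cells with a Mki67 or Top2a UMI after thinning was 1.00 to 1.32 times that in cells without.

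The DHA ratio of most members was further below 1 with LPS than without it. The log2 ratio of the summed level was -0.51 at 0 h, and was lower by a further -0.27 (95% interval -0.30 to -0.24, counting error) at 1 h and -0.33 (-0.37 to -0.29) at 4 h. For Lss the differences were -0.40 (-0.55 to -0.24) and -0.53 (-0.72 to -0.33), and for Sc5d -0.37 and -0.40. The differences of Hsd17b7 were -0.37 (-0.49 to -0.26) at 1 h and -0.17 (-0.29 to -0.04) at 4 h, and those of Nsdhl -0.13 (-0.27 to 0.02) and -0.46 (-0.64 to -0.27). Ebp, with -0.08 (-0.18 to 0.02) and 0.03 (-0.10 to 0.16), and Dhcr7, with -0.10 (-0.29 to 0.09) and -0.19 (-0.54 to 0.17), had intervals that held 0 at both hours. All of these differences use the same pair of libraries without LPS. They are the same quantities as the gaps between DHA and Veh values in the plot of LPS ratios, not a separate observation. The choice of cells moved single members. With all deposited barcodes, Cyp51 had log2 DHA ratios of -0.27 at 0 h and -0.23 at 1 h. The median over the members in that setting was -0.31, -0.44 and -0.69 at 0, 1 and 4 h.

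The share of cells with a UMI of each gene was read after every cell was thinned to 20000 UMIs, so that depth was equal. Msmo1 was found in 55.6% of Con cells, in 93.7%, 96.2% and 93.3% of Veh cells at 0, 1 and 4 h, and in 87.7%, 87.5% and 85.7% of DHA cells. Lss was found in 16.4% of Con cells, in 54.6%, 58.2% and 49.1% of Veh cells and in 34.8%, 34.8% and 25.1% of DHA cells. For Dhcr7 the share was 44.0%, 35.0% and 12.1% with Veh and 30.8%, 25.2% and 8.24% with DHA. Each share was lower with DHA than with Veh at the same hour for all 3 genes. Without thinning, Lss was found in 31.3% to 75.2% and Dhcr7 in 11.7% to 64.2% of cells, and the share that free RNA alone would give could not be read, since these libraries hold a single cell type.

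The 9 genes were then summed in each thinned cell to ask how the difference was spread over cells. The median cell held 5 member UMIs in Con (10th to 90th percentile 2 to 9), 15 in Veh.LPS.0 (7 to 23), 22 in Veh.LPS.1 (10 to 34) and 17 in Veh.LPS.4 (6 to 33). DHA cells held a median of 10 (4 to 17), 12 (4 to 22) and 9 (3 to 17) at 0, 1 and 4 h. The whole distribution was lower, since 16.0%, 9.81% and 9.39% of DHA cells were above the Veh median of their hour, against 47.2%, 46.5% and 49.4% of the Veh cells themselves. Below the 10th percentile of Veh lay 24.8%, 36.0% and 22.5% of DHA cells, and above the 90th percentile 2.29%, 0.503% and 0.289%. Cells without any member UMI numbered 29 of 2908 in Con and 1 to 7 in each other library.

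**Figure D4:**
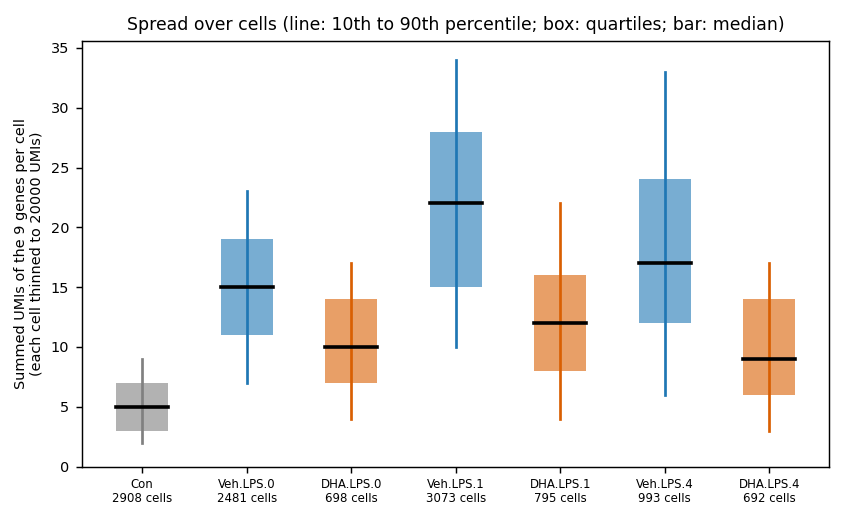
Summed UMIs of the 9 enzymes per cell (vertical axis), in cells thinned to 20000 UMIs, for each library (horizontal axis, with the number of cells); bars are medians, boxes quartiles and lines the 10th to 90th percentile. Medians run from 5 in Con to 22 in Veh.LPS.1, and those of DHA (10, 12 and 9) are below those of Veh (15, 22 and 17).

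The plot of summed UMIs per cell shows the spread within each library too. The variance of the sum over its mean, which counting alone would put at 1 and which grows with the mean, was 1.41 for Con, 2.62, 4.11 and 5.63 for Veh by hour, and 2.81, 3.65 and 3.09 for DHA. The squared coefficient of variation beyond counting, which does not grow in that way, was 0.0758 among Con cells, 0.106, 0.143 and 0.247 among Veh cells, and 0.170, 0.211 and 0.208 among DHA cells. On that scale DHA cells were more spread than Veh cells at 0 and 1 h and less spread at 4 h. Cells rich in 1 member tended to be rich in others, though hardly in Con. This was read as Pearson's r of each gene with the sum of the other 8 over thinned cells. These values are descriptions over cells of 1 library, which share depth and free RNA, and r is smaller for a gene with few UMIs. For Cyp51 r was 0.17 among Con cells, 0.36, 0.48 and 0.65 among Veh cells by hour, and 0.43, 0.49 and 0.45 among DHA cells. Msmo1 reached 0.18 among Con, 0.36, 0.51 and 0.57 among Veh, and 0.36, 0.49 and 0.42 among DHA cells. The pairs of highest r in Veh.LPS.4 were Cyp51 with Msmo1 at 0.51, Sqle with Cyp51 at 0.45 and Cyp51 with Sc5d at 0.41. Most pairs were weaker. Over all pairs of members the median r was 0.03 among Con cells. Among Veh cells it was 0.11, 0.16 and 0.23 by hour, and among DHA cells 0.12, 0.14 and 0.10.

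Ebp stood apart among cells too. Its r with the other 8 was 0.02 among Con, 0.16, 0.12 and 0.17 among Veh, and 0.07, 0.07 and 0.06 among DHA cells. Sc5d, which had almost the same mean in thinned Veh.LPS.0 cells (1.59 UMIs, against 1.61 for Ebp), had r of 0.28 there. Dhcr7 had values of 0.02 in Con and 0.12 to 0.20 in the other libraries, with fewer UMIs per cell. The summed members also varied with the summed mevalonate enzymes of the earlier stretch, with r of 0.26 in Con and 0.61 to 0.78 in the other 6 libraries.

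**Figure D5:**
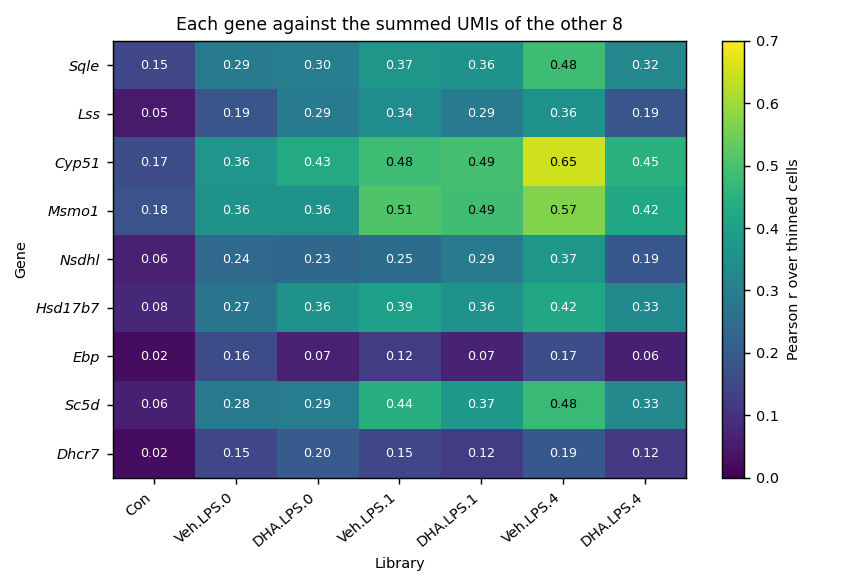
Pearson's r of each enzyme (rows) with the summed UMIs of the other 8, over thinned cells of each library (columns), as colour and number. Cyp51 in Veh.LPS.4 has the highest value at 0.65, and Ebp does not pass 0.17 in any library.

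Other genes of sterol metabolism were read beside the members. Tm7sf2 and Lbr are both sterol reductases of the same stretch. Tm7sf2 stood at 6.93 CPM with Veh against 4.08 CPM with DHA before LPS, and at 3.89 against 1.22 CPM after 4 h, with DHA ratios of 0.589 (0.489 to 0.707), 0.530 and 0.315 (0.203 to 0.470) at 0, 1 and 4 h. It was past 1.5-fold at each hour. Lbr, which is also a protein of the nuclear envelope, had DHA ratios of 0.647, 0.725 and 0.869, past 1.5-fold at 0 h alone. From Con to Veh.LPS.0, Tm7sf2 rose from 0.883 to 6.93 CPM, while Lbr had 81.0 and 75.7 CPM.

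The 9 mevalonate enzymes that lead to squalene were lower with DHA by more than 1.5-fold in 7 cases at 0 h, in 9 at 1 h and in 8 at 4 h, with median log2 ratios of -0.64, -0.93 and -1.04. All 9 were higher in Veh.LPS.0 than in Con by that fold, with a median of 2.06. With Veh, 3 were higher and none lower at 1 h of LPS, and 2 were higher and 2 lower at 4 h. Of all genes, 9.31% were higher in Veh.LPS.0 than in Con. With LPS and Veh, 4.15% were higher and 4.24% lower at 1 h, and 10.2% higher and 38.3% lower at 4 h. With DHA, 0.949%, 1.73% and 2.42% of all genes were lower at 0, 1 and 4 h. Hmgcs1, the synthase at the start of the stretch, was at 112, 412 and 135 CPM over the 3 hours with Veh and at 68.0, 153 and 65.9 CPM with DHA. Its ratio at 1 h with Veh was 3.69, above the 1.87 of Cyp51, the largest of the members.

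From the list of SREBP control and sterol uptake, 9 genes were read. Lower with DHA by more than 1.5-fold were 2, 3 and 2 of them at 0, 1 and 4 h, with medians of -0.40, -0.41 and -0.24. The shares of all genes lower with DHA were 0.949%, 1.73% and 2.42% at those hours. Higher with DHA by any amount were 1, 2 and 2 of the 9, with 0 past 1.5-fold at each hour. Insig1, itself a known SREBP target, had log2 ratios of -0.70, -1.34 and -1.21. Insig2 went the other way, at 29.6, 25.6 and 17.0 CPM across Veh and 33.6, 28.9 and 22.5 CPM across DHA. Srebf2, which encodes SREBP2, measured 37.9 CPM in Con, 79.2, 93.6 and 74.4 CPM across Veh and 59.9, 70.5 and 62.8 CPM across DHA, and its log2 DHA ratios of -0.40, -0.41 and -0.24 were inside 1.5-fold. The 7 genes of oxysterol synthesis and sterol efflux, of which 5 reached 10 UMIs on both sides, gave 3, 1 and 2 genes lower by that fold with DHA, with medians of -0.66, -0.05 and 0.09.

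Among 8761 genes, likeness to the enzymes was measured as Pearson's r of log2 CPM with the members' mean profile over the 7 libraries, a description over 7 points. The 10 non-members of highest r were Pank3 (0.994), Rdh11 (0.968), Srebf2 (0.967), Tuba1a (0.965), Gm29340 (0.964), Fdft1 (0.962), Fdps (0.951), Nop53 (0.948), Stk38l (0.947) and Dnajb2 (0.940). Of these, 5 were also among the 10 highest by Spearman's rho. Neither value takes account of the size of a change. The log2 range over the libraries ran from 0.54 for Nop53 and 1.01 for Pank3 up to 3.14 for Gm29340. Ranges of the members ran from 1.04 for Ebp to 2.79 for Cyp51. Pank3, a kinase of coenzyme A synthesis, was at 26.9 CPM in Con, at 46.0, 54.2 and 43.3 CPM across Veh and at 37.2, 39.8 and 33.8 CPM across DHA. Of the members, which make up the profile, Lss had r of 0.993, Sqle and Nsdhl 0.989, Msmo1 0.948, Sc5d 0.945, Cyp51 0.913 and Hsd17b7 0.877, whereas Dhcr7 had 0.489 and Ebp 0.039.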

How the data were processed

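The authors deposited, for each of 7 libraries, counts of UMIs per gene and barcode from 10x 3′ libraries, not normalized. The submitters' processing notes and the file headers name Cell Ranger 3.1.0, and the notes name the build mm10. The paper's methods give another Cell Ranger version. Barcodes with more than 20000 UMIs, at least 2000 genes and under 20% mitochondrial UMIs were kept. UMIs were summed per gene and library and divided by the library total to CPM, with exact Poisson 95% intervals. Ratios of CPM have exact binomial 95% intervals, and differences of log2 ratios have intervals from the 4 UMI counts. With 1 library per condition no test was made, and a gene was counted as higher or lower past 1.5-fold. The background holds genes detected in 25% or more of cells in 1 or both libraries. Its shares were counted from library totals over the kept cells, so member counts under the alternatives below have no matching share. Cells were thinned to 20000 UMIs for shares, sums per cell and correlations over cells. Thinned counts also set which cells were without Mki67 or Top2a, and the full counts of those cells were then summed. Such cells can hold these UMIs at full depth. In Veh.LPS.4, 49.2% of cells had a UMI of either gene after thinning, whereas Top2a by itself was found in 54.4% at full depth.

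Named are the 9 enzymes, Tm7sf2 and Lbr, genes of 4 fixed lists (mevalonate, SREBP control and uptake, oxysterol and efflux, proliferation; a ratio needs 10 UMIs in both libraries) and the 10 genes most like the members. Some items of the lists are not reported here. Members and lists were chosen with earlier results of these data known. Ratios of CPM and their intervals were tested on simulated counts that varied by counting error alone. Thinning was checked on real cells for its totals, and the other steps were not tested in this way. No doublet caller was run, and an alternative left out cells above 100000 UMIs. The other alternatives were TMM factors, limits of 10000 UMIs or 10% mitochondrial UMIs, all barcodes, a mean of each cell's own CPM, and cells without Mki67 or Top2a. A search of promoters for motifs was planned and not run, as no promoter sequences were used here. Gene positions come from the RefSeq annotation of mm10. Python 3.11.15, numpy 2.4.6, scipy 1.17.1, pandas 2.3.3 and edgeR 4.0.16 were used.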

Additional observations from a re-analysis of the deposited data

How the results depend on the processing

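No member past 1.5-fold turned its direction under any of the 7 alternatives and counts not given here stayed within 1.5 times of those reported, though single members lost the limit. With all deposited barcodes, the median log2 ratio of DHA over Veh was -0.31, -0.44 and -0.69 at 0, 1 and 4 h, with 2 lower members at 0 h and 4 at 1 h. In DHA cells it was 0.14 for 1 h of LPS, with 2 higher members, and -0.50 for 4 h. In cells without Mki67 or Top2a UMIs after thinning, medians were 1.87 for Veh.LPS.0 against Con and 0.48 for Veh.LPS.4 against Veh.LPS.0. They were -0.43 for DHA over Veh at 0 h (1 lower member), -1.18 at 4 h, and -0.13 for DHA.LPS.4 against DHA.LPS.0 (2 higher members). These cells numbered 120 in Con and 171 in DHA.LPS.0. Sc5d was inside 1.5-fold under 5 alternatives for DHA over Veh at 0 h (-0.58 to -0.37) and under 2 for Veh.LPS.4 against Veh.LPS.0 (0.57). For Veh.LPS.4 against Veh.LPS.0, TMM factors put Sc5d at 1.00. TMM factors gave medians of 0.46 and 0.34 for Veh with 1 and 4 h of LPS (1 lower member at 4 h) and -0.076 for DHA.LPS.4 against DHA.LPS.0 (2 higher members, 1 lower), and 2 higher members for DHA.LPS.1 against DHA.LPS.0. TMM medians were -0.85 for DHA over Veh at 4 h and 0.10 for DHA.LPS.1 against DHA.LPS.0. With under 10% mitochondrial UMIs, 1 member was higher in DHA.LPS.4 than in DHA.LPS.0. The cause of these moves was not tested. No paired analysis was possible because each condition had 1 library. Depth limits Dhcr7 most, with 89 UMIs in DHA.LPS.4.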
